A study of Mus musculus with 12 samples.

Results

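The transcriptomes of C3H/10T1/2 cells that had received a BMP2 and miR-590 plasmid, BMP2ADV590, were compared with those of cells that had received a BMP2 and miR-20a plasmid, BMP2ADV20a. C3H/10T1/2 cells come from mouse embryo, look like fibroblasts and can enter the cartilage, bone and fat lineages; the labels also tag the line as sarcoma. Libraries were chosen by their titles, and 3 libraries of each group, 6 of the 12 libraries in the series, form the comparison. Each culture had been transfected transiently, without a virus, with 0.5 µg plasmid DNA per square cm, and its RNA was taken 3 days later. Both groups carry BMP2 on the plasmid as well as a miRNA, so the comparison exchanges the miRNA and leaves BMP2 on both sides. The BMP2ADV plasmid, which carries BMP2 with no miRNA in its name, is used below only to show where each group stands. The cells are of 1 line, and the share of cells that took up a plasmid, the arm of miR-590 that was meant to act, and untransfected cells were not analysed here. The files hold 47643 genes, of which 13229 had enough counts to be tested.

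A miRNA guides a silencing complex to messenger RNAs, mainly through its seed, the bases near its 5′ end that pair with the 3′ untranslated region of a target, and such targets tend to be degraded or translated less. BMP2 binds surface receptors that phosphorylate SMAD proteins, which turn on genes such as the Id genes and the inhibitory Smad6 and Smad7. In mesenchymal cells BMP2 can also lead to SOX9, the transcription factor that turns on the genes of cartilage matrix. As cartilage cells mature they build a matrix of collagen II, collagen IX, collagen XI and sulfated aggrecan, lose actin stress fibres and later make collagen X.

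The sequences below are the mature miRNAs whose seeds were searched in the 3′ untranslated regions, taken from RefSeq on GRCm38.p6, with the seed (bases 2 to 8) in capitals. miR-20a-5p lies at chr14:115044183-115044205 (plus strand) in the miR-17-92 cluster, beside miR-17-5p at chr14:115043684-115043706 (plus strand), which has the same seed. miR-590 is named only. miR-21a-5p, at chr11:86584120-86584141 (minus strand), is shown because miR-590-5p shares its seed.
mmu-miR-20a-5p: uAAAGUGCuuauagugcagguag
mmu-miR-17-5p: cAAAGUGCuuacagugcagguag
mmu-miR-21a-5p: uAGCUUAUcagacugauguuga
The letters that pair with these seeds in a messenger RNA are GCACTTT for miR-20a-5p and ATAAGCT for miR-21a-5p.

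The 6 libraries held 10056741 to 14727288 gene counts. Mitochondrial transcripts took 1.90% to 2.32% of gene counts in BMP2ADV590 and 1.77% to 1.86% in BMP2ADV20a, and lines that hold no gene took 52.2% to 52.7% against 53.4% to 53.7% of the records. Neither range overlapped, and each had an exact two-sided permutation p of 0.1, the smallest that 20 splits of 3 against 3 can give. The part of these differences in the results was not tested. On the first principal component of the 6 libraries, which held 27.7% of the variance, the BMP2ADV590 libraries lay at 28.8, 4.94 and 18.9 and the BMP2ADV20a libraries at -27.3, -18.98 and -6.42. BMP2ADV590 replicate 2 stood apart on the second (23.4% of the variance), at -38.8 where the other 5 lay between -0.197 and 15.4. Ccn2, a matricellular gene, showed it, with 1416, 397 and 828 against 885, 893 and 1086 CPM. Nothing in the labels tells whether libraries that share a group were grown separately. The p-values therefore measure the spread between libraries of a group only, estimated from all 12 libraries of the series in a shared fit. In bulk RNA, fewer cells of a type and less RNA per cell cannot be told apart.

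The genes named in the plasmid labels were looked at first, at their mouse loci. Bmp2 (ENSMUSG00000027358, chromosome 2, 133552159 to 133562885 on GRCm38) was scarce, with 4.52, 5.82 and 4.81 CPM in the BMP2ADV590 libraries and 4.20, 2.99 and 3.00 CPM in the BMP2ADV20a libraries. The groups did not overlap, but the difference missed the threshold (log2 fold change 0.56, SE 0.341, adjusted p = 0.48, edgeR quasi-likelihood test). In the BMP2ADV libraries it had 1.77, 1.39 and 0.733 CPM, below both hybrids, with log2 fold changes against BMP2ADV of 1.91 in BMP2ADV590 (adjusted p = 0.0021) and 1.35 in BMP2ADV20a (adjusted p = 0.16). Mir20a had 0 counts in all 6 libraries, which allows up to 3 counts over a group (0.0766 CPM in BMP2ADV20a and 0.0843 in BMP2ADV590), so nothing at this locus backs the BMP2ADV20a label. Such a locus can be counted in these files. In the libraries labelled BMP2ADV148b, the third hybrid of the series, Mir148b had 211, 215 and 204 counts, and it had 0 in all other libraries. Mir590 is not in the annotation used here, so that label has no such value either. Whether 3′ reads of the BMP2 insert would be counted at mouse Bmp2 was not tested, so its values are not shown to be plasmid output. Whether 3′ reads of the miR-20a insert would fall within Mir20a was not tested either, and every direction below is by label. The host transcripts of the endogenous copies showed no called difference. Mir17hg, the host of miR-20a, had 1.84, 1.97 and 3.50 against 3.29, 2.47 and 2.81 CPM (log2 fold change -0.25, SE 0.378, adjusted p = 0.834), and Eif4h, in which endogenous miR-590 lies, had 243, 253 and 247 against 243, 244 and 235 CPM (log2 fold change 0.04, SE 0.0728, adjusted p = 0.851).

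With miR-590 in place of miR-20a, the called genes included cartilage matrix genes, some BMP targets and 4 keratin genes among those higher, and some genes of the actin cytoskeleton, the cell cycle and inflammation among those lower. At an adjusted p below 0.05 (edgeR quasi-likelihood test, Benjamini-Hochberg adjustment over all 13229 genes), 171 genes were higher in BMP2ADV590 (1.29% of those tested) and 116 were lower (0.877%), 2.17% in all. The changes were small. The median size of the log2 fold change was 0.58 for the higher genes and 0.46 for the lower genes, and 19 higher and 3 lower genes reached a size of 1. The ranges of the groups did not meet for 163 of the 171 higher genes, for all 116 lower genes and for 19.1% of all tested genes. The counts rest on single libraries. Without BMP2ADV20a replicate 1 they were 38 higher and 26 lower, without BMP2ADV20a replicate 2 they were 47 and 38, and without BMP2ADV590 replicate 1 or 3 they were 86 and 64 or 95 and 52. They were 324 and 165 once BMP2ADV590 replicate 2, which lay apart on the second component, was dropped. Of the 100 called genes named here, 26 kept their call whichever of the 6 libraries was left out, and 67 lost it without BMP2ADV20a replicate 1 and 63 without BMP2ADV20a replicate 2. With only the 6 compared libraries in the fit, 25 of the 100 lost their call. Under every alternative fit, 20 of the 100 kept it.

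**Figure D1:**
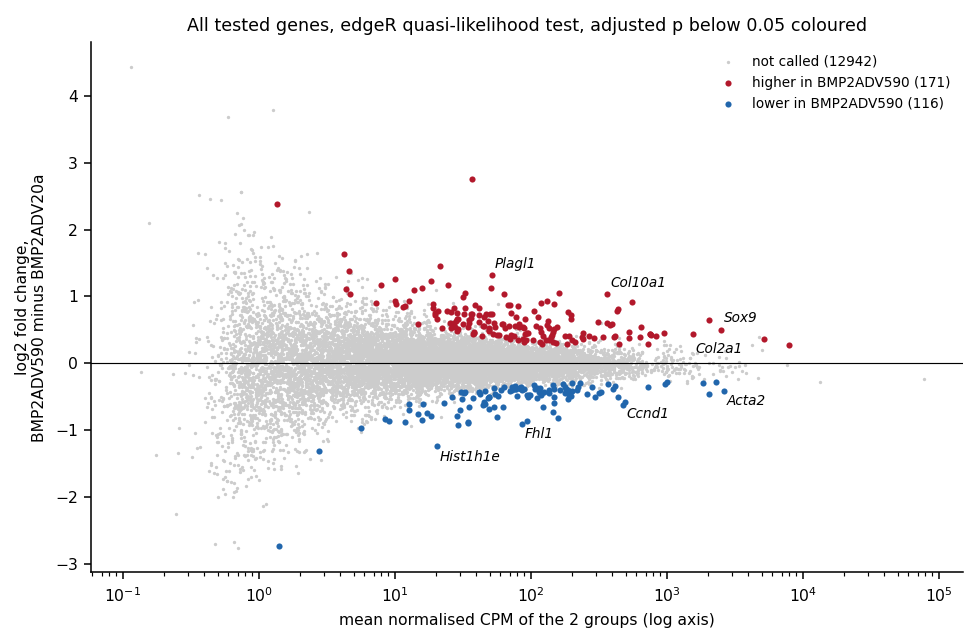
Log2 fold change (BMP2ADV590 minus BMP2ADV20a) of each of the 13229 tested genes against the mean normalised CPM of both groups on a log axis; red and blue points passed the edgeR test as higher (171) or lower (116). Called genes lie on both sides of 0, such as Plagl1 at 1.32 and Hist1h1e at -1.24, and 165 of the 171 higher and 113 of the 116 lower genes had a mean of 10 CPM or more.

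Transcription factors, collagens and a linking protein of cartilage were among the genes higher in the miR-590 group. Of the 30 chondrocyte genes listed, 20 were tested, 10 of these were higher and 0 lower, against 1.29% and 0.877% of all tested genes. The median log2 fold change of the 20 was 0.74, where that of all tested genes was 0.0075. The summed level of the list was 7386 to 8584 CPM in BMP2ADV590 and 5449 to 6060 CPM in BMP2ADV20a, without overlap. The number of higher members was 5 without BMP2ADV20a replicate 1, 4 without replicate 2 and 13 without replicate 3.

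Among the transcription factors, Sox9 (ENSMUSG00000000567, chromosome 11, 112782224 to 112787760), which commits cells to cartilage, had 2998, 3129 and 2692 CPM in the BMP2ADV590 libraries and 2053, 2005 and 2187 CPM in the BMP2ADV20a libraries. All 3 libraries with miR-590 lay above all 3 with miR-20a, and the difference was called (log2 fold change 0.50, SE 0.1, adjusted p = 0.00807). Sox6, a partner of SOX9 on cartilage enhancers, had 41.6, 45.4 and 39.2 against 22.2, 23.3 and 25.9 CPM, again without overlap (log2 fold change 0.83, SE 0.15, adjusted p = 0.00426). Runx3, a factor of cartilage maturation, was not called, at 67.3, 73.8 and 76.2 against 85.8, 74.3 and 81.5 CPM (log2 fold change -0.15, SE 0.0889, adjusted p = 0.453). Wwp2, named here after its values were seen, encodes a ubiquitin ligase, and its introns hold the cartilage miRNA miR-140. It had 806, 985 and 817 against 606, 637 and 673 CPM and was higher (log2 fold change 0.44, SE 0.094, adjusted p = 0.0113). Sox9 lost its call without BMP2ADV20a replicate 1 or 2 (adjusted p up to 0.0683), and Wwp2 without BMP2ADV20a replicate 1 or 2 (adjusted p up to 0.107), while Sox6 kept its call whichever of the 6 libraries was left out.

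The collagens of cartilage followed. Col2a1, the main fibril collagen of cartilage, had 1757, 1845 and 1754 CPM in the BMP2ADV590 libraries and 1323, 1261 and 1378 CPM in the BMP2ADV20a libraries. The groups stood well apart (log2 fold change 0.44, SE 0.083, adjusted p = 0.00573). Col9a1, whose product coats those fibrils, was scarcer, at 69.3, 74.3 and 66.9 against 33.8, 19.98 and 42.9 CPM. BMP2ADV20a replicate 2 was lowest and replicate 3 highest within that group, and every BMP2ADV590 library lay above them (log2 fold change 1.13, SE 0.206, adjusted p = 0.00426). Col10a1 (ENSMUSG00000039462, chromosome 10, 34389981 to 34397085), the collagen of hypertrophic cartilage, had 501, 532 and 446 CPM in the BMP2ADV590 libraries and 189, 245 and 286 CPM in the BMP2ADV20a libraries. No library overlapped (log2 fold change 1.04, SE 0.154, adjusted p = 0.000976). Col11a2, named after its values were seen, was higher (log2 fold change 0.79, SE 0.199, adjusted p = 0.036), whereas Col11a1, the other collagen XI chain listed, was not called at 905, 1054 and 775 against 791, 764 and 811 CPM (log2 fold change 0.21, SE 0.0853, adjusted p = 0.247). Col9a1 and Col10a1 kept their calls whichever library was left out. Col2a1 lost its call without BMP2ADV20a replicate 2 (adjusted p up to 0.0554), and Col11a2 without BMP2ADV590 replicate 1 or 3 or BMP2ADV20a replicate 1 or 2 (adjusted p up to 0.202).

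Hapln1 (ENSMUSG00000021613, chromosome 13, 89539796 to 89611652), the link protein that fixes aggrecan to hyaluronan, had 228, 209.6 and 213 CPM in the BMP2ADV590 libraries and 92.8, 97.1 and 126 CPM in the BMP2ADV20a libraries. The groups were far apart (log2 fold change 1.046, SE 0.141, adjusted p = 0.000719), and the call held whichever library was left out. Acan, which encodes aggrecan itself, was uneven, with 99.4, 92.03 and 64.9 against 34.6, 27.6 and 63.7 CPM. BMP2ADV590 replicate 3 and BMP2ADV20a replicate 3 nearly met, with the groups just not overlapping (log2 fold change 1.04, SE 0.24, adjusted p = 0.0216). Acan lost its call without BMP2ADV590 replicate 1 or BMP2ADV20a replicate 1 or 2 (adjusted p up to 0.167), and DESeq2 and the robust fit did not call it. Fgfr3, a receptor that restrains growth plate cartilage, had 242, 252 and 218 against 120.0, 128 and 169.9 CPM (log2 fold change 0.77, SE 0.163, adjusted p = 0.0113). It lost its call without BMP2ADV20a replicate 1 or 2 (adjusted p up to 0.118) and under the same alternatives. Matn4, a matrilin, was not called at 86.3, 113 and 76.2 against 73.9, 77.7 and 83.5 CPM (log2 fold change 0.23, SE 0.147, adjusted p = 0.505).

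Against BMP2ADV, the values of the 2 hybrid groups are given side by side, since both comparisons share the BMP2ADV libraries. In these comparisons 8.26% of the tested genes were called for BMP2ADV590 and 0.476% for BMP2ADV20a. Sox9 had a log2 fold change of 0.77 in BMP2ADV590 (adjusted p = 2.87e-05) and 0.27 in BMP2ADV20a (adjusted p = 0.339). Col10a1 had 1.36 in BMP2ADV590 (adjusted p = 7.32e-06) and 0.32 in BMP2ADV20a (adjusted p = 0.509). Hapln1 had 1.23 in BMP2ADV590 (adjusted p = 7.96e-06) and 0.19 in BMP2ADV20a (adjusted p = 0.702). For each of these cartilage genes the BMP2ADV20a value missed the threshold.

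**Figure D2:**
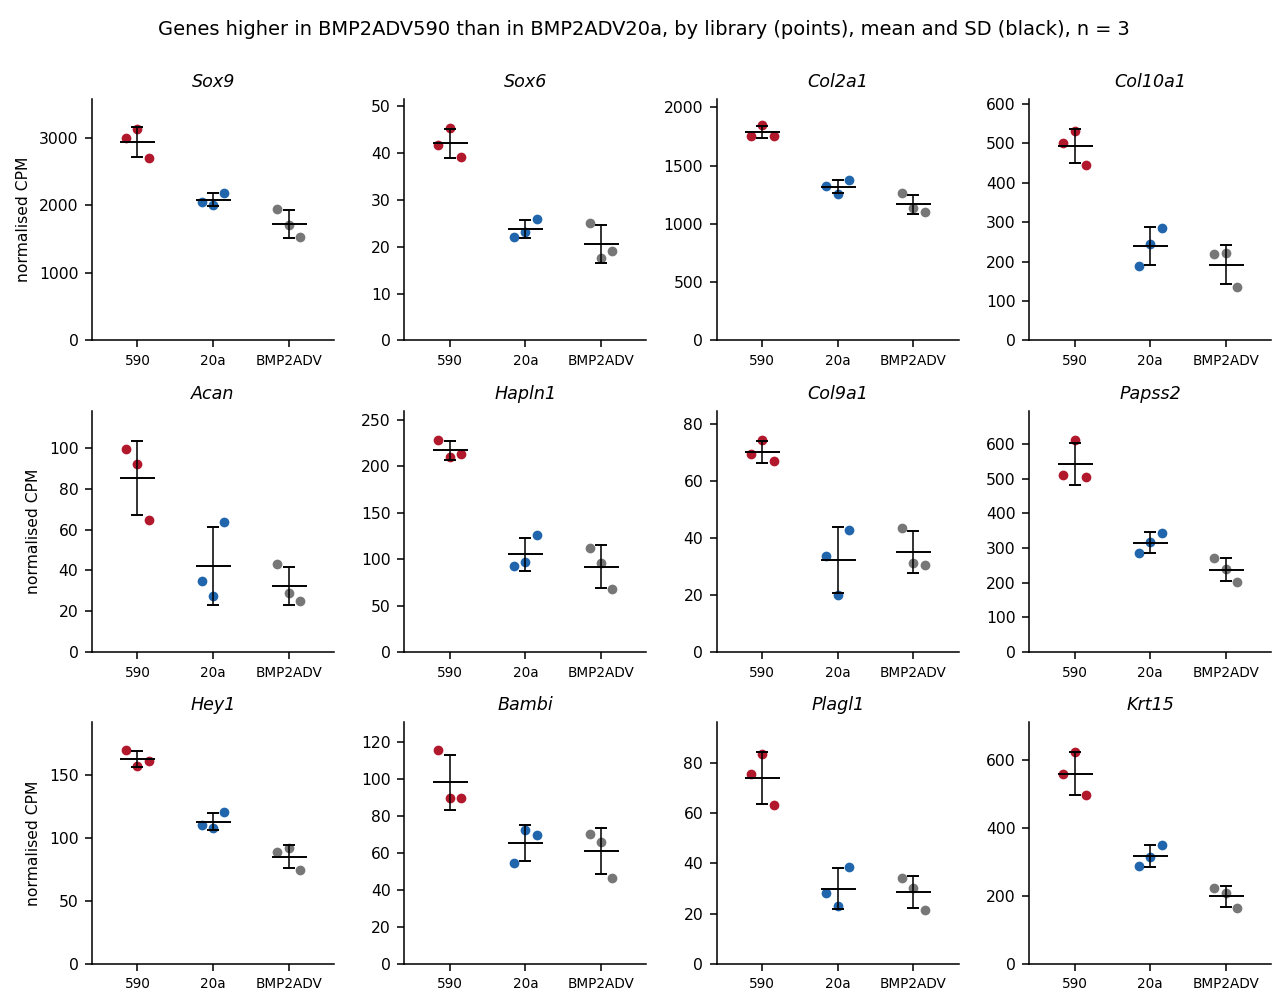
Normalised CPM (linear axis from 0) of 12 genes that were higher in BMP2ADV590 than in BMP2ADV20a, with BMP2ADV for reference; each point is a library, and black bars give the mean and SD of 3 libraries. In every panel the 3 BMP2ADV590 points lie above the 3 BMP2ADV20a points, by the least for Acan, where 64.9 CPM faces 63.7 CPM.

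Some enzymes that make and sulfate the glycosaminoglycan chains of proteoglycans were also called as higher. This group was picked after its values were seen, so its count is a description. Of 52 genes of glycosaminoglycan synthesis listed, 42 were tested, 6 were higher and 0 lower. Among all tested genes 1.29% were higher and 0.877% lower. The median log2 fold change of the 42 was 0.20. Papss2 (ENSMUSG00000024899, chromosome 19, 32595790 to 32667187), which makes the activated sulfate used in cartilage, had 509.8, 613 and 505 CPM in the BMP2ADV590 libraries and 285, 318 and 344 CPM in the BMP2ADV20a libraries. Its groups did not overlap, and the call (log2 fold change 0.78, SE 0.109, adjusted p = 0.000719) held whichever library was left out. Csgalnact1, which starts chondroitin chains, had 54.0, 60.9 and 51.96 against 34.1, 33.4 and 36.3 CPM and also kept its call throughout (log2 fold change 0.69, SE 0.123, adjusted p = 0.00402). Chst11, which sulfates chondroitin, was higher (log2 fold change 0.54, SE 0.11, adjusted p = 0.0085), as were Ugdh (log2 fold change 0.39, SE 0.0741, adjusted p = 0.00571) and Ugp2 (log2 fold change 0.40, SE 0.083, adjusted p = 0.0103), which supply the sugar nucleotides, and the sulfate carrier gene Slc26a2 (log2 fold change 0.41, SE 0.105, adjusted p = 0.0372). The count was 2 without BMP2ADV20a replicate 1, 4 without BMP2ADV20a replicate 2 or BMP2ADV590 replicate 1 and 9 without BMP2ADV590 replicate 2. Panx3, a channel gene of maturing cartilage and bone, was singled out in the same way, with 29.9, 30.02 and 32.4 against 19.02, 13.4 and 21.4 CPM (log2 fold change 0.78, SE 0.186, adjusted p = 0.0261). It lost its call without BMP2ADV590 replicate 1 or 3 or BMP2ADV20a replicate 1 or 2 (adjusted p up to 0.169).

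Mgp, the inhibitor of matrix calcification, moved the other way. It was named after its values were seen and had 369.6, 358 and 367 CPM in the BMP2ADV590 libraries and 564, 528 and 466 CPM in the BMP2ADV20a libraries, so that each miR-590 library lay below each miR-20a library (log2 fold change -0.51, SE 0.0796, adjusted p = 0.00162). The call held whichever library was left out.

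Of the BMP-SMAD targets, some inhibitors and patterning factors were higher and the Id genes were not called. Of 21 listed, 20 were tested, 4 were higher and 0 lower, against 1.29% and 0.877% of all tested genes. The median log2 fold change of the 20 was 0.32. Hey1, a repressor that also answers to Notch, had 169.5, 157 and 161 CPM in the BMP2ADV590 libraries and 110.2, 107 and 120.3 CPM in the BMP2ADV20a libraries. No library overlapped, and the call (log2 fold change 0.53, SE 0.0945, adjusted p = 0.00402) held whichever library was left out. Smad6, an inhibitory SMAD, had 167, 118 and 129.8 against 98.6, 105 and 95.01 CPM, with BMP2ADV590 replicate 1 well above the other 5 libraries (log2 fold change 0.47, SE 0.103, adjusted p = 0.014). Bambi, a decoy receptor that damps BMP signals, had 115, 89.6 and 89.3 against 54.1, 72.4 and 69.4 CPM (log2 fold change 0.59, SE 0.132, adjusted p = 0.0187). Dlx5, a homeobox gene of bone and cartilage, had 32.5, 35.04 and 33.04 against 24.2, 22.5 and 25.5 CPM (log2 fold change 0.48, SE 0.116, adjusted p = 0.0297). Called members numbered 1 without BMP2ADV590 replicate 1 or BMP2ADV20a replicate 1 and 3 without any other of the 6 libraries.

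The direct SMAD targets Id1, Id2 and Id3, which encode blockers of differentiation factors, were not called. Their log2 fold changes were 0.01 (adjusted p = 0.977), -0.03 (adjusted p = 0.916) and 0.02 (adjusted p = 0.957), and their signs changed when single libraries were left out. Id1 had 385, 349 and 391 against 393, 376 and 348 CPM, with the groups intermixed. Smad7, another inhibitory SMAD, was also intermixed, at 50.6, 63.0 and 56.3 against 61.8, 61.1 and 46.8 CPM (log2 fold change -0.0041, SE 0.115, adjusted p = 0.993). Its 95% interval reached from -0.24 to 0.23. Nog, a secreted BMP antagonist, was scarce, at 4.02, 3.41 and 5.41 against 2.10, 0.673 and 2.90 CPM, and its difference was not called (log2 fold change 1.19, SE 0.464, adjusted p = 0.226). Crim1, a membrane protein that binds BMPs, had 47.4, 47.9 and 43.7 against 50.1, 49.4 and 44.04 CPM (log2 fold change -0.05, SE 0.106, adjusted p = 0.9). Of 23 tested BMP pathway components, Bmpr2, the type II receptor gene, was the 1 called as higher, at 130.0, 135 and 129 against 101, 100.3 and 113 CPM (log2 fold change 0.32, SE 0.0841, adjusted p = 0.0419), and 0 were lower. Bmpr2 lost its call without BMP2ADV590 replicate 1, 2 or 3 or BMP2ADV20a replicate 1 or 2 (adjusted p up to 0.233). Among all tested genes 1.29% were higher and 0.877% lower. The ligand gene Bmp4 had 163, 121 and 114 against 171, 159 and 164 CPM (log2 fold change -0.31, SE 0.104, adjusted p = 0.142).

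Bone and fat genes gave little. Of 17 tested osteoblast genes 0 were called by edgeR or DESeq2, with 1 called at most when a library was left out, and the median log2 fold change was -0.14. Col1a1, the main collagen of bone and fibroblasts, had 4042, 4325 and 4783 against 5766, 5004 and 4488 CPM, and the groups overlapped (log2 fold change -0.21, SE 0.0945, adjusted p = 0.293). Of 12 tested adipocyte genes 2 were higher and 0 lower, against 1.29% and 0.877% of all tested genes. A log2 fold change above 0 was seen in 11 of the 12 (median 0.21). The adipocyte list summed to 691 to 751 CPM in BMP2ADV590 and 590 to 627 CPM in BMP2ADV20a, without overlap. The higher count was 0 without BMP2ADV20a replicate 1 or 2. Scd1, a fatty acid desaturase, had 129.9, 155 and 127 against 87.6, 91.3 and 107 CPM (log2 fold change 0.53, SE 0.0989, adjusted p = 0.0056). Fabp4, a fatty acid carrier, was scarce, at 14.8, 7.71 and 10.4 against 3.78, 3.22 and 7.96 CPM (log2 fold change 1.17, SE 0.297, adjusted p = 0.0368), with BMP2ADV590 replicate 2 just below BMP2ADV20a replicate 3. Pparg, the regulator of fat cells, had 26.96, 7.35 and 25.4 against 12.3, 11.7 and 19.9 CPM (log2 fold change 0.46, SE 0.282, adjusted p = 0.484). BMP2ADV590 replicate 2 was the lowest of the 6, and without that library the adjusted p was 0.00625. Scd1 lost its call without BMP2ADV20a replicate 1 or 2 (adjusted p up to 0.0664), and Fabp4 without BMP2ADV590 replicate 1 or 3 or BMP2ADV20a replicate 1 or 2 (adjusted p up to 0.226).

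A few matrix genes outside cartilage changed in both directions. Of 28 tested collagen genes 3 were higher and 0 lower, against 1.29% and 0.877% of all tested genes. The median log2 fold change of the 28 was 0.16. Col27a1, a fibril collagen of the growth plate, had 768, 769.7 and 638 CPM in the BMP2ADV590 libraries and 333, 323 and 501 CPM in the BMP2ADV20a libraries. BMP2ADV20a replicate 3 was the closest to the other group, and the call (log2 fold change 0.91, SE 0.16, adjusted p = 0.00336) held whichever library was left out. The collagen VI genes Col6a2 (log2 fold change 0.54, SE 0.104, adjusted p = 0.0066) and Col6a1 (log2 fold change 0.43, SE 0.116, adjusted p = 0.0472) lie side by side on chromosome 10. Col6a1 lost its call without any library other than BMP2ADV590 replicate 1 and under DESeq2. The number of higher collagens was 1 without BMP2ADV20a replicate 2. Of 25 proteoglycan and elastic fibre genes 3 were higher and 1 lower. Lum, which encodes the keratan sulfate proteoglycan lumican, was scarce, at 15.95, 13.8 and 12.6 against 5.74, 3.52 and 8.71 CPM (log2 fold change 1.26, SE 0.26, adjusted p = 0.00975). Eln (log2 fold change 0.60, SE 0.143, adjusted p = 0.0258) and Fbn2 (log2 fold change 0.57, SE 0.138, adjusted p = 0.0294) encode elastin and fibrillin 2. The 3 higher members fell to 0 without BMP2ADV20a replicate 1 or 2. Fbln7, a fibulin, was among the largest rises, at 21.03, 18.8 and 16.7 against 7.76, 6.58 and 12.4 CPM (log2 fold change 1.097, SE 0.238, adjusted p = 0.0141).

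Among the proteoglycan and elastic fibre genes, the lower member was Thbs1 (ENSMUSG00000040152, chromosome 2, 118111876 to 118127133), which encodes thrombospondin 1, a protein that activates TGF-beta. It had 75.9, 58.6 and 66.8 CPM in the BMP2ADV590 libraries and 136, 117 and 113 CPM in the BMP2ADV20a libraries, without overlap (log2 fold change -0.86, SE 0.124, adjusted p = 0.000719), and the call held whichever library was left out. Of 26 matrix remodelling genes 2 were higher and 2 lower, against 1.29% and 0.877% of all tested genes. Timp3, an inhibitor of metalloproteinases, was abundant, at 5980.5, 6104 and 5619.7 against 4429, 4476 and 4829 CPM (log2 fold change 0.37, SE 0.0711, adjusted p = 0.0066), and Mmp11, a metalloproteinase, rose as well (log2 fold change 0.67, SE 0.131, adjusted p = 0.00686). The membrane protease gene Mmp16 fell, at 86.1, 87.8 and 99.3 against 134, 134 and 125 CPM (log2 fold change -0.53, SE 0.0913, adjusted p = 0.0032), as did Adamts1, an aggrecan-cleaving protease (log2 fold change -0.40, SE 0.0832, adjusted p = 0.0103). Mmp16 kept its call whichever library was left out, and the other 3 lost theirs without BMP2ADV20a replicate 1 or 2.

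Of 13 tested keratin and epithelial plaque genes 4 were higher and 0 lower, against 1.29% and 0.877% of all tested genes. The 4 were called whichever library was left out. They are neighbours on chromosome 11, so they may not be independent, and reads that align to more than 1 place, as can happen among related genes, stand on a line of their own outside the gene counts. Krt15 (ENSMUSG00000054146, chromosome 11, 100131758 to 100135928), a keratin of basal epithelium, had 557, 623 and 496 CPM in the BMP2ADV590 libraries and 287, 314 and 351 CPM in the BMP2ADV20a libraries, without overlap (log2 fold change 0.82, SE 0.138, adjusted p = 0.00258). Krt16 had 35.9, 50.1 and 40.3 against 19.7, 21.8 and 21.8 CPM (log2 fold change 1.00, SE 0.167, adjusted p = 0.00249), Krt13 a log2 fold change of 0.88 (adjusted p = 0.00447) and Krt42 1.13 (adjusted p = 0.00709). Against BMP2ADV, Krt15 had a log2 fold change of 1.495 in BMP2ADV590 (adjusted p = 8.62e-07) and 0.68 in BMP2ADV20a (adjusted p = 0.0246), so both hybrid groups were above that reference. The 11 genes of the epithelium list summed to 2.51 to 3.74 CPM in BMP2ADV590 and 3.37 to 4.56 CPM in BMP2ADV20a, 4 of them, Epcam, Cldn3, Cldn4 and Cldn7, were at 0 in all 6 libraries, and 0 of the 2 tested were called.

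Of 15 tested imprinted growth genes 4 were higher and 0 lower, against 1.29% and 0.877% of all tested genes. Plagl1 (ENSMUSG00000019817, chromosome 10, 13060504 to 13131694), a zinc finger regulator of fetal growth, was the largest rise that the naming rule took. It had 75.8, 83.7 and 63.3 CPM in the BMP2ADV590 libraries and 28.1, 22.9 and 38.8 CPM in the BMP2ADV20a libraries, with every miR-590 library above every miR-20a library (log2 fold change 1.32, SE 0.2, adjusted p = 0.00134), and kept its call whichever library was left out. Gnas, which encodes the stimulatory G protein alpha subunit at a locus of overlapping transcripts, had 1112, 774 and 984 against 737, 700.3 and 719 CPM (log2 fold change 0.41, SE 0.093, adjusted p = 0.019). Mest, a hydrolase gene, had 694, 480.4 and 666 against 374, 483 and 476 CPM, with BMP2ADV590 replicate 2 inside the range of the other group (log2 fold change 0.47, SE 0.116, adjusted p = 0.0345). H19, a long noncoding RNA, had 38.3, 51.7 and 36.5 against 27.2, 23.1 and 33.6 CPM (log2 fold change 0.60, SE 0.152, adjusted p = 0.0368). Called members numbered 1 without BMP2ADV20a replicate 1 or 2 and 2 without BMP2ADV590 replicate 1 or 3. For H19 the values against BMP2ADV were 0.17 in BMP2ADV590 (adjusted p = 0.574) and -0.42 in BMP2ADV20a (adjusted p = 0.318). Igf1, the growth factor, was among the largest rises too, at 183, 175 and 158 against 73.1, 80.3 and 117 CPM. BMP2ADV20a replicate 3 was the highest of its group, and Igf1 (log2 fold change 0.94, SE 0.177, adjusted p = 0.00571) lost its call without BMP2ADV20a replicate 1 or 2 (adjusted p up to 0.0671).

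The remaining large rises were Cmtm5, a membrane protein gene, at 36.1, 36.1 and 29.8 against 15.5, 9.58 and 20.7 CPM (log2 fold change 1.17, SE 0.235, adjusted p = 0.00821), and Rnf128, a ubiquitin ligase gene, at 55.8, 43.8 and 32.6 against 19.4, 15.2 and 30.1 CPM (log2 fold change 1.049, SE 0.213, adjusted p = 0.00845). In both genes BMP2ADV20a replicate 3 was the closest to the other group. Cmtm5 lost its call without BMP2ADV20a replicate 1 or 2 (adjusted p up to 0.0771), and Rnf128 without BMP2ADV590 replicate 1 or BMP2ADV20a replicate 1 or 2 (adjusted p up to 0.0827). Secreted signals differed as well. Sema3c, a guidance cue, had 109, 108 and 94.2 CPM in the BMP2ADV590 libraries and 56.6, 52.5 and 63.7 CPM in the BMP2ADV20a libraries (log2 fold change 0.85, SE 0.0983, adjusted p = 0.000111), and its call held whichever library was left out. Among Wnt pathway genes 2 of 23 were higher, the secreted inhibitors Frzb (log2 fold change 0.87, SE 0.201, adjusted p = 0.0216) and Sfrp2 (log2 fold change 0.63, SE 0.155, adjusted p = 0.0318), and 2 were lower, Ccn4 (log2 fold change -0.50, SE 0.107, adjusted p = 0.0132) and Ccn5 (log2 fold change -0.80, SE 0.151, adjusted p = 0.0056), matricellular proteins induced by Wnt signals in other cells. Of all tested genes 1.29% were higher and 0.877% lower. The higher Wnt count was 0 without BMP2ADV590 replicate 1 or BMP2ADV20a replicate 1 or 2, 1 without BMP2ADV590 replicate 3 and by DESeq2, and 3 without BMP2ADV590 replicate 2. The lower count was 0 without BMP2ADV20a replicate 1 and 1 without BMP2ADV20a replicate 2 or BMP2ADV590 replicate 1. Boc, a Hedgehog co-receptor gene, was higher (log2 fold change 0.41, SE 0.0925, adjusted p = 0.0186). Of 11 tested Hedgehog and parathyroid hormone genes 1 was higher, and that count was 0 without BMP2ADV590 replicate 3 or BMP2ADV20a replicate 1 or 2. Fzd1, a Wnt receptor gene, was not called at 79.8, 21.95 and 52.96 against 24.4, 31.5 and 29.4 CPM, but without BMP2ADV590 replicate 2 its adjusted p was 0.000146.

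Some cytoskeletal genes were lower in the miR-590 group. Of 15 tested contractile fibroblast genes 5 were lower and 0 higher, against 0.877% and 1.29% of all tested genes. The median log2 fold change of the 15 was -0.36, and the summed level of the list was 6237 to 6606 CPM against 7068 to 8217 CPM. Cnn2 (ENSMUSG00000004665, chromosome 10, 79988584 to 79996062), a calponin that binds actin, had 284, 248 and 284 CPM in the BMP2ADV590 libraries and 379, 380.0 and 346 CPM in the BMP2ADV20a libraries. The groups were separate, and the call (log2 fold change -0.44, SE 0.0793, adjusted p = 0.00426) held whichever library was left out. Acta2, smooth muscle actin, had 2079.7, 2369 and 2361 against 3483, 3009.6 and 2537 CPM, and BMP2ADV20a replicate 3 came closest to the other group (log2 fold change -0.41, SE 0.0938, adjusted p = 0.0214). The tropomyosin genes Tpm2 and Tpm1, whose products coat actin filaments, fell by 0.44 and 0.30 on the log2 scale (adjusted p = 0.0137 and 0.0304), and the myosin light chain gene Myl9 had 174, 222 and 189 against 257, 247 and 246 CPM (log2 fold change -0.36, SE 0.0822, adjusted p = 0.0214). Cald1, a caldesmon gene of the same filaments, was not called, with a log2 fold change of 0.08 (adjusted p = 0.634). The number of lower members was 1 without BMP2ADV20a replicate 1 or 2, 2 without BMP2ADV590 replicate 1 and 3 without BMP2ADV590 replicate 3.

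Further cytoskeletal genes stood among the largest falls. Fhl1 (ENSMUSG00000023092, chromosome X, 56731787 to 56793346), a LIM protein of stress fibres and muscle, had 56.8, 53.3 and 70.9 CPM in the BMP2ADV590 libraries and 112, 125 and 100.3 CPM in the BMP2ADV20a libraries. The libraries of the groups were far apart (log2 fold change -0.90, SE 0.127, adjusted p = 0.000719). Dstn, which encodes destrin, a protein that severs actin filaments, had 116, 131 and 99.8 against 231, 196 and 184 CPM (log2 fold change -0.82, SE 0.141, adjusted p = 0.00292), and Tuba4a, an alpha tubulin, 24.6, 22.6 and 25.4 against 46.9, 37.3 and 50.1 CPM (log2 fold change -0.89, SE 0.126, adjusted p = 0.000719). Nfatc3, a calcium-regulated transcription factor, had 121, 121 and 89.7 against 204, 174 and 169.6 CPM (log2 fold change -0.73, SE 0.114, adjusted p = 0.00162). These 4 kept their calls whichever library was left out. The scarcer genes Arrb1, a beta-arrestin (log2 fold change -0.84, SE 0.21, adjusted p = 0.0345), Npy1r, a neuropeptide Y receptor (log2 fold change -0.79, SE 0.167, adjusted p = 0.0113), and Edn1, endothelin 1 (log2 fold change -0.76, SE 0.202, adjusted p = 0.0461), did not. Arrb1 and Edn1 were not called by limma-voom. Skeletal muscle markers summed to 33.9 to 38.9 CPM in BMP2ADV590 and 38.8 to 49.4 CPM in BMP2ADV20a over 16 genes. Of these, Myod1, Myf5, Myf6, Ckm and Mymk were at 0 in all 6 libraries. Acta1, skeletal actin, was lower (log2 fold change -0.61, SE 0.164, adjusted p = 0.0473), which was 1 of the 2 tested markers, where 0.877% of all tested genes were lower. Acta1 lost its call without BMP2ADV590 replicate 1 or 3 or BMP2ADV20a replicate 1, 2 or 3 (adjusted p up to 0.191).

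**Figure D3:**
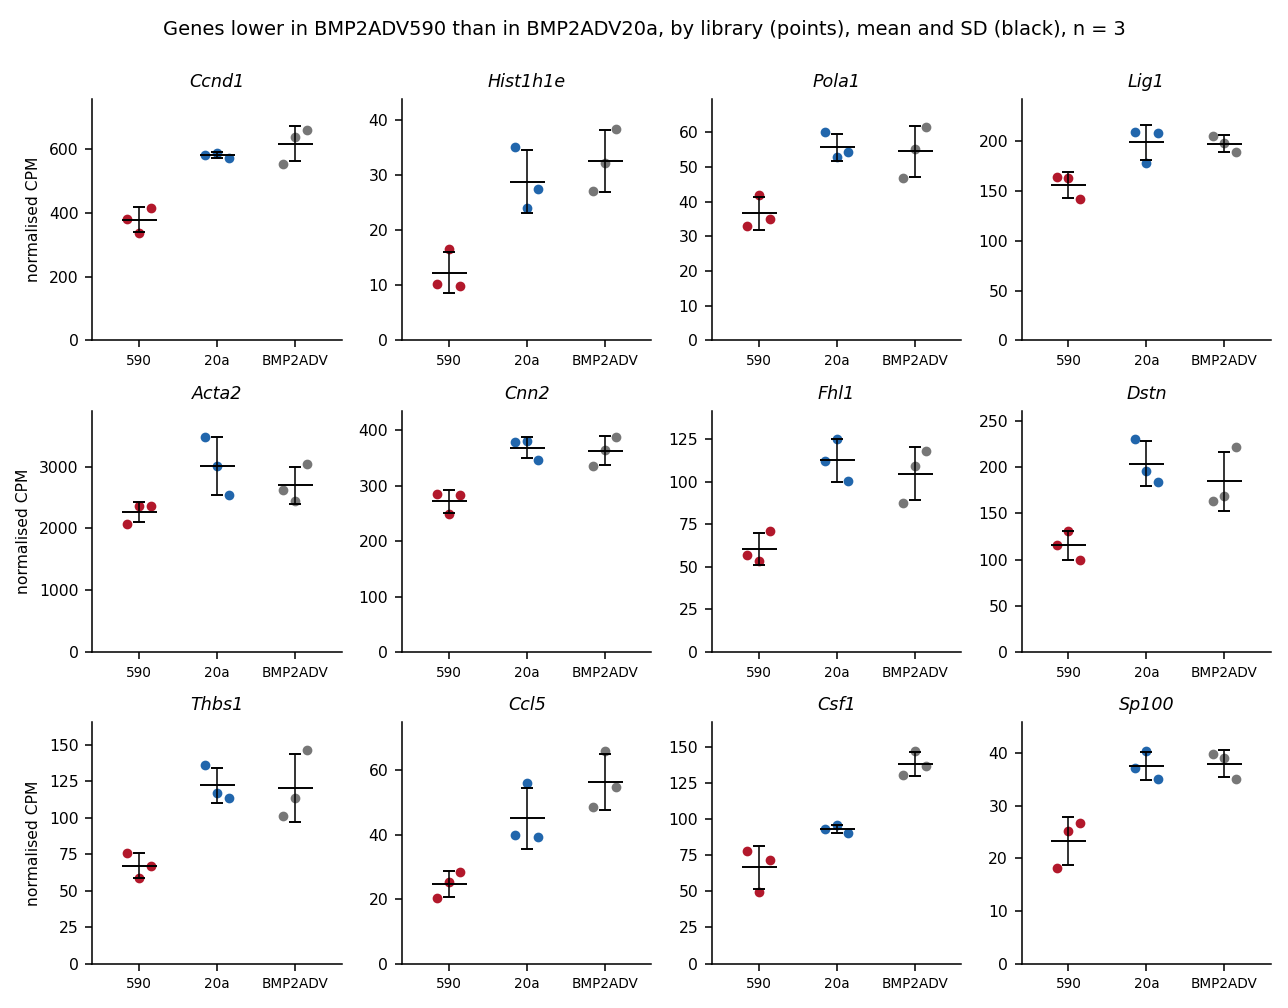
Normalised CPM (linear axis from 0) of 12 genes that were lower in BMP2ADV590 than in BMP2ADV20a, with BMP2ADV for reference; each point is a library, and black bars give the mean and SD of 3 libraries. The 3 BMP2ADV590 points lie below the 3 BMP2ADV20a points in every panel. In some panels, such as those of Csf1 and Ccl5, the BMP2ADV20a mean also lies below that of BMP2ADV, a difference that was not called for Ccl5.

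The D cyclins and a few genes of replication and mitosis were lower, and most cell cycle genes tested were not called. Of 11 tested D cyclin and CDK inhibitor genes 3 were lower and 0 higher, against 0.877% and 1.29% of all tested genes. The 3 were the D cyclins themselves, which drive cells from G1 into S phase. Ccnd1 (ENSMUSG00000070348, chromosome 7, 144929931 to 144939925) had 381, 336 and 414 CPM in the BMP2ADV590 libraries and 581, 587 and 571 CPM in the BMP2ADV20a libraries. No library overlapped, and the call (log2 fold change -0.62, SE 0.0878, adjusted p = 0.000719) held whichever library was left out. Ccnd2 (log2 fold change -0.28, SE 0.0715, adjusted p = 0.035) kept its call only without BMP2ADV590 replicate 2. Ccnd3 (log2 fold change -0.30, SE 0.071, adjusted p = 0.0261) lost its call without BMP2ADV590 replicate 3 or BMP2ADV20a replicate 1, 2 or 3. Lower members of this list numbered 3 without BMP2ADV590 replicate 2, 2 without BMP2ADV590 replicate 1 and 1 without any other of the 6 libraries. The inhibitor gene Cdkn1a was not called, at 336, 332 and 311 against 363, 352 and 389.7 CPM (log2 fold change -0.17, SE 0.0769, adjusted p = 0.299).

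Of 37 tested DNA replication genes 3 were lower and 0 higher, against 0.877% and 1.29% of all tested genes. A log2 fold change above 0 was seen in 5 of the 37 (median -0.16). Pola1, the catalytic subunit of the polymerase that primes replication, had 32.9, 41.8 and 35.04 against 60.1, 52.7 and 54.2 CPM (log2 fold change -0.61, SE 0.124, adjusted p = 0.00861). Gins2, part of the replicative helicase, had 27.03, 23.4 and 26.03 against 37.9, 39.5 and 32.8 CPM (log2 fold change -0.53, SE 0.117, adjusted p = 0.017), and Lig1, the ligase that joins lagging strand pieces, 164, 163 and 142 against 209.7, 179 and 209 CPM (log2 fold change -0.35, SE 0.0864, adjusted p = 0.0326). In each of these the groups did not overlap. The abundant helicase gene Mcm3 was not called, at 125, 149.9 and 142 against 171, 163 and 156 CPM (log2 fold change -0.23, SE 0.0879, adjusted p = 0.206). Called members numbered 0 without BMP2ADV20a replicate 1 and 1 without BMP2ADV590 replicate 3. Of 38 mitosis genes 2 were lower and 0 higher, Cenpa, the centromeric histone (log2 fold change -0.39, SE 0.103, adjusted p = 0.046), and Ckap2l, a spindle protein gene (log2 fold change -0.36, SE 0.0917, adjusted p = 0.0397). Cenpa lost its call without BMP2ADV590 replicate 2 or 3 or BMP2ADV20a replicate 1, 2 or 3 (adjusted p up to 0.178), and Ckap2l without BMP2ADV590 replicate 2 or 3 or BMP2ADV20a replicate 1, 2 or 3 (adjusted p up to 0.215). Cdk1, the mitotic kinase, had 369, 419 and 396 against 453, 459 and 471 CPM, which did not pass the test although the groups were apart (log2 fold change -0.22, SE 0.0756, adjusted p = 0.14). Hist1h1e (ENSMUSG00000051627, chromosome 13, 23620629 to 23622558), a linker histone of the replication-dependent cluster, was the largest fall that the naming rule took, with 10.3, 16.6 and 9.91 CPM in the BMP2ADV590 libraries and 35.04, 23.9 and 27.5 CPM in the BMP2ADV20a libraries (log2 fold change -1.24, SE 0.212, adjusted p = 0.00292). It was the 1 called among 22 tested histone genes, where 0.877% of all tested genes were lower. Its call held whichever library was left out. Reads of related histone genes can be lost as ambiguous, and how fully 3′ reads capture histone messenger RNAs was not tested.

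Inflammatory and interferon genes were lower in a few members. Of 31 tested NF-kB inflammatory genes 3 were lower and 0 higher, against 0.877% and 1.29% of all tested genes. The median log2 fold change of the 31 was -0.13. Ccl5 (ENSMUSG00000035042, chromosome 11, 83525778 to 83530518), a chemokine that draws T cells and monocytes, had 20.3, 25.3 and 28.3 CPM in the BMP2ADV590 libraries and 39.9, 55.97 and 39.3 CPM in the BMP2ADV20a libraries, without overlap (log2 fold change -0.88, SE 0.167, adjusted p = 0.00571). Csf1, the growth factor of macrophages, had 78.1, 49.8 and 71.5 against 93.2, 96.1 and 90.4 CPM (log2 fold change -0.49, SE 0.12, adjusted p = 0.0318), and Irf1, an interferon-induced regulator, 29.4, 26.7 and 28.5 against 38.6, 39.7 and 35.7 CPM (log2 fold change -0.43, SE 0.115, adjusted p = 0.0472). Rela, the NF-kB subunit, had 57.3, 64.3 and 58.9 against 77.2, 75.2 and 73.2 CPM and was not called (log2 fold change -0.32, SE 0.0933, adjusted p = 0.0741). Called members numbered 0 without BMP2ADV20a replicate 2, 1 without BMP2ADV20a replicate 1 or BMP2ADV590 replicate 3, and 5 by DESeq2. Against BMP2ADV, Csf1 had a log2 fold change of -1.052 in BMP2ADV590 (adjusted p = 7.01e-06) and -0.57 in BMP2ADV20a (adjusted p = 0.0261). Irf1 had -1.13 in BMP2ADV590 (adjusted p = 1.30e-06) and -0.70 in BMP2ADV20a (adjusted p = 0.00197). Ccl5 had -1.20 in BMP2ADV590 (adjusted p = 5.69e-05) and -0.32 in BMP2ADV20a (adjusted p = 0.521). For Csf1 and Irf1 both hybrid groups were below BMP2ADV. Between the hybrids, however, Irf1 kept its call in none of the 6 fits that left out a library (adjusted p up to 0.176), Csf1 lost its call without BMP2ADV590 replicate 2 or 3 or BMP2ADV20a replicate 1, 2 or 3 (adjusted p up to 0.132), and Ccl5 without BMP2ADV20a replicate 2 (adjusted p up to 0.0664).

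Of 47 tested interferon response genes 3 were lower and 1 higher, against 0.877% and 1.29% of all tested genes. A log2 fold change above 0 was seen in 7 of the 47 (median -0.18). Sp100 (ENSMUSG00000026222, chromosome 1, 85649988 to 85709998), a nuclear body protein, had 18.1, 25.3 and 26.7 CPM in the BMP2ADV590 libraries and 37.1, 40.4 and 35.1 CPM in the BMP2ADV20a libraries. The groups were apart (log2 fold change -0.69, SE 0.131, adjusted p = 0.00571), and its call held whichever library was left out. Ly6e, a membrane protein that restricts viruses (log2 fold change -0.41, SE 0.0991, adjusted p = 0.03), and Parp14, an ADP-ribosyltransferase (log2 fold change -0.50, SE 0.126, adjusted p = 0.0354), were the other lower members, and Ifi27, a mitochondrial protein gene, was higher (log2 fold change 0.42, SE 0.102, adjusted p = 0.028). Ifit3, an abundant antiviral gene, overlapped between groups at 454, 621 and 494 against 539, 729 and 586 CPM (log2 fold change -0.24, SE 0.11, adjusted p = 0.311). Lower members numbered 8 without BMP2ADV590 replicate 2, 1 without any of BMP2ADV590 replicate 1 or 3 or BMP2ADV20a replicate 2 or 3, and 5 by DESeq2. The higher count was 0 without BMP2ADV590 replicate 1 or 3 or BMP2ADV20a replicate 1 or 2. H2-D1, a class I heavy chain, was the 1 called of 18 class I presentation genes (log2 fold change -0.38, SE 0.0901, adjusted p = 0.0259) and lost its call without BMP2ADV590 replicate 1 or 3 or BMP2ADV20a replicate 2 (adjusted p up to 0.165), and 0 of 18 interferon-inducible GTPase and p200 genes were called by edgeR or DESeq2. Macrophage markers were near 0. The 14 genes summed to 6.27 to 8.11 CPM in BMP2ADV590 and 7.27 to 8.34 CPM in BMP2ADV20a, with Adgre1, C1qa, C1qc and Tyrobp at 0 in all 6 libraries.

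Single members of stress pathways changed. The ATF4 targets Mthfd2 (log2 fold change -0.41, SE 0.0928, adjusted p = 0.0189) and Nupr1 (log2 fold change -0.52, SE 0.119, adjusted p = 0.0203) and the NRF2 targets Gsta4 (log2 fold change -0.48, SE 0.1, adjusted p = 0.0103) and Srxn1 (log2 fold change -0.36, SE 0.0904, adjusted p = 0.0355) were lower, out of 27 and 21 tested. Among all tested genes 0.877% were lower. Without BMP2ADV20a replicate 1 the ATF4 count was 0, without BMP2ADV590 replicate 1 or 3 it was 1, and without BMP2ADV20a replicate 2 the NRF2 count was 0. The small heat shock protein gene Cryab was higher, at 1032, 1224 and 1084 against 761, 845 and 838 CPM (log2 fold change 0.45, SE 0.0902, adjusted p = 0.00795), as was the glucose carrier gene Slc2a1 (log2 fold change 0.37, SE 0.0976, adjusted p = 0.0468). Srxn1 and Slc2a1 kept no call in any fit with 5 of the 6 libraries (adjusted p up to 0.15 and 0.265). Of the chemokine Cxcl12, which retains stem cells in marrow, 268, 274 and 306 against 386, 411 and 343 CPM were counted (log2 fold change -0.43, SE 0.0831, adjusted p = 0.0066), and Dusp5, a phosphatase induced by FGF signals, was lower (log2 fold change -0.61, SE 0.154, adjusted p = 0.0366). Of 18 tested FGF signalling genes 1 was lower, and that count was 0 without BMP2ADV590 replicate 2 or 3 or BMP2ADV20a replicate 1 or 2. For the p53 response, the unfolded protein response, TGF-beta targets, immediate early genes, the circadian clock, cholesterol synthesis, the lysosome, the retinoic acid pathway, mitochondrial transcripts and miRNA processing, 0 members were called by edgeR. The mitochondrial transcript mt-Nd4 had 6478, 4707 and 5125 against 4355, 3643 and 4366 CPM (log2 fold change 0.40, SE 0.12, adjusted p = 0.0893), with BMP2ADV590 replicate 1 the highest. The mesenchymal gene Vim, which encodes vimentin, marked all 6 libraries, at 9419, 8087 and 8770.0 against 6929, 7241 and 7584 CPM (log2 fold change 0.27, SE 0.0696, adjusted p = 0.0377). Endothelial markers summed to 37.1 to 43.0 CPM against 28.5 to 40.2 CPM over 11 genes, with Cdh5 and Cldn5 at 0. Neural markers summed to 170.2 to 181.0 CPM against 188 to 230.3 CPM over 12 genes, with Sox10 and Olig2 at 0. Map2, a microtubule protein, was the 1 called of 7 tested, as lower (log2 fold change -0.40, SE 0.0981, adjusted p = 0.0297). That neural count reached 0 among the fits that left out a library. The part of these markers in the results was not tested.

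**Figure D4:**
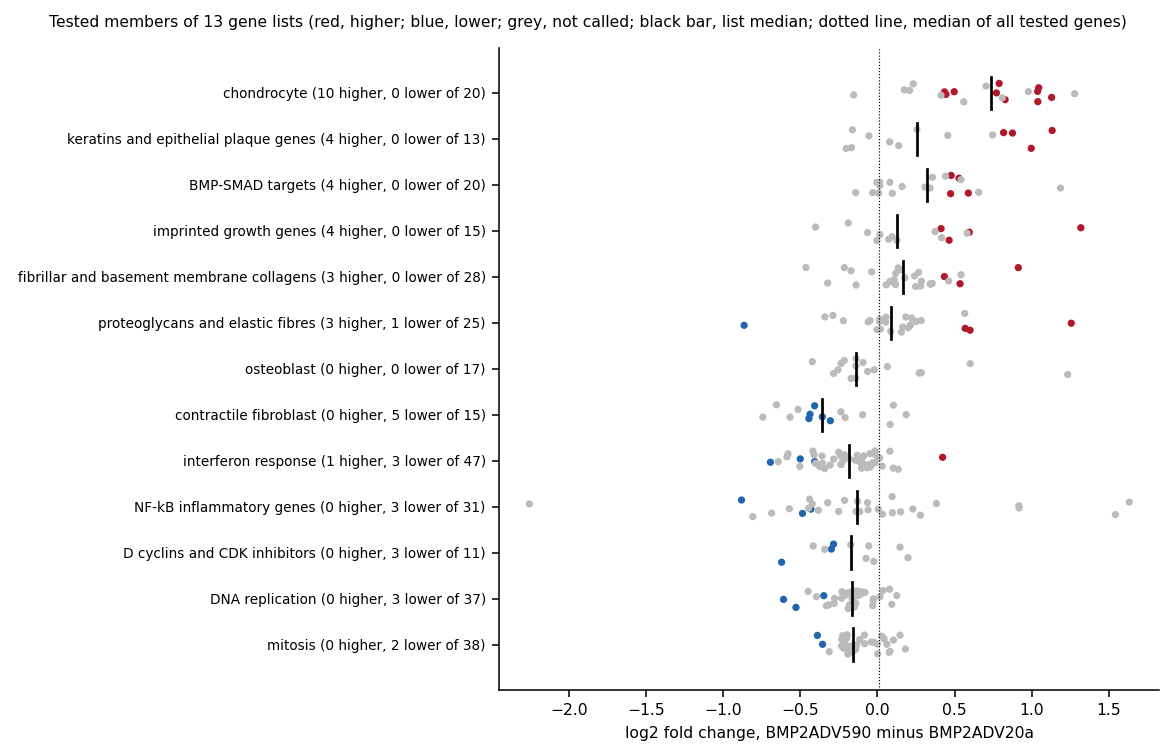
Log2 fold change (BMP2ADV590 minus BMP2ADV20a) of each tested member of 13 gene lists; red points were called as higher and blue points as lower, black bars give list medians and the dotted line the median of all tested genes. The chondrocyte median lies at 0.74 and the contractile fibroblast median at -0.36, and called members lie on 1 side in each list except interferon response and proteoglycans and elastic fibres.

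The shares of called genes were set side by side for genes with and without a seed match, with no test of the difference. Of 11581 tested genes with an annotated 3′ untranslated region, 1744 held the letters GCACTTT, which pair with the miR-20a-5p seed. In BMP2ADV590 against BMP2ADV20a 30 of them were higher (1.72%) and 15 lower (0.86%), beside 1.36% and 0.966% of the genes without a match. The median log2 fold changes were 0.012 and 0.010. In BMP2ADV20a against BMP2ADV the medians were -0.0167 with a match and -0.0026 without. For ATAAGCT, which pairs with the seed of miR-21a-5p, 949 genes held a match, 17 were higher (1.79%) and 6 lower (0.632%), beside 1.38% and 0.978%, and both medians were 0.011. With the longer match GCACTTTA, 1.48% were higher and 0.371% lower, beside 1.41% and 0.978%, and with ATAAGCTA 1.08% and 1.43%, beside 1.42% and 0.938%. These shares rest on few genes, 8 and 2 for the former and 3 and 4 for the latter. Regions with a 7-base match were longer, with medians of 2573 and 2831 bases against 1045 and 1128 bases.

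Of 36 tested candidate miR-20a targets, 34 held a match, 3 were higher and 2 lower, against 1.29% and 0.877% of all tested genes. Smad6, Bambi and Bmpr2 were higher with miR-590 in place of miR-20a, and Ccnd1 and Ccnd2 were lower. Against BMP2ADV, the median log2 fold change of the 36 was 0.0286 in BMP2ADV590 and 0.0156 in BMP2ADV20a. The higher members fell to 0 without BMP2ADV590 replicate 1 or BMP2ADV20a replicate 1. Matches of 4 called members are shown as messenger sense letters from GENCODE M21 transcripts on GRCm38, with the bases that pair with the seed in capitals. A match is a run of letters and no measured site. The Smad6 match lies at chr9:63953277-63953305 (minus strand), those of Bmpr2 at chr1:59870672-59870700 and chr1:59874348-59874376 (plus strand), that of Ccnd1 at chr7:144931668-144931696 (minus strand) and that of Ccnd2 at chr6:127129332-127129360 (minus strand).
Smad6: gaaacaagaaagacGCACTTTggcttgta
Bmpr2, first: gttttttaagttttGCACTTTtgtttagt
Bmpr2, second: tatggtatcacactGCACTTTtactctgt
Ccnd1: cattccatttcaaaGCACTTTtggtcagc
Ccnd2: attccattagaaaaGCACTTTgaaaattt
Of 33 tested candidate miR-590-5p and miR-21 targets, 24 held a match, 2 were higher (Timp3 and Bmpr2) and 1 was lower (Tpm1, which held no match in this region), where 1.29% and 0.877% of all tested genes were higher and lower. The higher count was 0 without BMP2ADV20a replicate 1 or 2, 1 without any of the BMP2ADV590 libraries and 4 without BMP2ADV20a replicate 3. Tpm1 lost its call without BMP2ADV590 replicate 3 or BMP2ADV20a replicate 1, 2 or 3 (adjusted p up to 0.15). The Timp3 match lies at chr10:86348213-86348241 (plus strand) and that of Bmpr2 at chr1:59877118-59877146 (plus strand).
Timp3: tttttgagctttcaATAAGCTatagcttt
Bmpr2, for miR-21a-5p: tggacaggagaaacATAAGCTaccaagta
Bmpr2 thus holds matches to both seeds. Against BMP2ADV, Timp3 had a log2 fold change of 0.58 in BMP2ADV590 (adjusted p = 1.41e-05) and 0.22 in BMP2ADV20a (adjusted p = 0.258) and Ccnd1 of -0.70 in BMP2ADV590 (adjusted p = 1.56e-05) and -0.08 in BMP2ADV20a (adjusted p = 0.804).

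Promoter windows of 300 bases (250 before to 50 after the gene start, RefSeq, GRCm38.p6) were found for 121 higher and 84 lower genes. The E2F letters TTTCCCGC, searched on both strands, were in 7 of the 84 lower genes (8.33%) and 1 of the 121 higher genes (0.826%, Wwp2), beside 2.45% of 9569 tested genes and 1.07% of all 32851 windows. E2F proteins turn on genes of S phase. Of 30 listed DNA replication genes with a window, 6 held the E2F letters (20%), and none of these was called. The 7 lower genes with the letters are Ptprk, Cnn2, U2af1, Siva1, Ece1, Hells and Tmpo, of which all but Cnn2 were named after the search. Ptprk, a receptor phosphatase gene, had 35.2, 36.6 and 36.6 against 54.1, 56.3 and 51.7 CPM (log2 fold change -0.58, SE 0.0944, adjusted p = 0.0019), and Hells, a chromatin remodeller of dividing cells, 56.9, 50.7 and 60.2 against 71.4, 69.6 and 73.1 CPM (log2 fold change -0.35, SE 0.0943, adjusted p = 0.0499). For U2af1, Siva1, Ece1 and Tmpo the log2 fold changes were -0.39, -0.38, -0.37 and -0.29 (adjusted p = 0.0132, 0.0317, 0.0364 and 0.0478). Siva1 and Hells lost their calls whichever library was left out (adjusted p up to 0.176). Of the 6 fits that left out a library, Tmpo kept its call in 1 (adjusted p up to 0.176) and Ece1 in 2 (up to 0.226). U2af1 kept its call in 5 (adjusted p up to 0.109), and Ptprk and Cnn2 kept theirs in all 6. The interferon letters GAAANNGAA were in 8.26% of the higher, 5.95% of the lower and 8.59% of the tested genes. The NF-kB letters GGANTTTCC were in 0, 2.38% and 1.59%, and the AP-1 letters TGANTCA in 9.09%, 5.95% and 6.04%.

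The windows of Cnn2 (chr10:79988350-79988649, plus strand) and Hells (chr19:38930740-38931039, plus strand) are shown as examples of lower genes with the E2F letters, which stand in capitals 190 and 62 bases before the gene start. In Hells the letters GAAAGAGAA, a form of GAAANNGAA, follow directly in capitals.
Cnn2: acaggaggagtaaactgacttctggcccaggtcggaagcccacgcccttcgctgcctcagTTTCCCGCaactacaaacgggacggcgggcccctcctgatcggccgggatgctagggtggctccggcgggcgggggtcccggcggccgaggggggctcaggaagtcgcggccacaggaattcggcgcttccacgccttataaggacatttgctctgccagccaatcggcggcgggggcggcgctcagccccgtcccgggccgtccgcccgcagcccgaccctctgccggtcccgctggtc
Hells: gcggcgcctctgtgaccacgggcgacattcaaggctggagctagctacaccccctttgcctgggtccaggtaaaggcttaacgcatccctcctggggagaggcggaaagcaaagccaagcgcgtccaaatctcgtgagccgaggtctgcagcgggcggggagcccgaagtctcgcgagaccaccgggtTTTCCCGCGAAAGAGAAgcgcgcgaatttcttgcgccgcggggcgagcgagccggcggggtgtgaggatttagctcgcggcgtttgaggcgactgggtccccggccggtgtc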

How the data were processed

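QuantSeq 3′ FWD libraries, made from 100 ng RNA with 16 PCR cycles per the labels, count reads near the 3′ end of messenger RNAs, so exon use was not measured. The deposited values are raw read counts per gene. The submitters' processing notes name FastQC 0.11.5, STAR 2.5.2a, HTSeq 0.6.0 and the build GRCm38, while counting mode, strand setting and gene annotation are not stated there. Lines that hold no gene were left out of library sizes. Gene symbols came from GENCODE M21. Counts were fitted in edgeR 4.0.16 (R 4.3.3) with TMM scaling and a quasi-likelihood F-test over all 12 libraries with 4 group means, two-sided, after the filterByExpr filter on low counts. Adjusted p-values are Benjamini-Hochberg over the 13229 genes tested, called below 0.05. CPM are TMM-normalised counts scaled to a common library size. Log2 fold changes are BMP2ADV590 minus BMP2ADV20a, with standard errors from the F statistic and 95% intervals. The common biological coefficient of variation was 0.117. The fit was tested on simulated data. Alternatives used DESeq2 1.42.0, limma-voom (limma 3.58.1), other scaling, other filters and single libraries left out. The miR-590-3p seed was not searched. The libraries compared and the gene lists were chosen with earlier results of these data known. Genes were named by rule, as always named (Bmp2, Mir20a, Mir17hg, Eif4h, Sox9, Nog, Smad7, Pparg, Bambi, Crim1), as the 12 largest rises and 12 largest falls that were called, had a mean of at least 10 CPM in 1 group and did not overlap, or as up to 5 called and 3 uncalled members of each list. Among the largest falls, 1 gene is not reported here. Intervals include the spread between libraries, and floors cover counting error only.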

Additional observations from a re-analysis of the deposited data

How the results depend on the processing

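Without a filter on low counts 297 genes were higher and 222 lower, and DESeq2 called 204 higher and 185 lower genes. The labels do not tell whether the replicate numbers pair the libraries. Deviations of same-numbered libraries had correlations of -0.0896, -0.00496 and -0.0149. They are taken from means of only 3 libraries and cannot settle whether a batch was shared. With the replicate number as a block 109 genes were higher and 63 lower. Leaving out each library in turn gave 38 to 324 higher and 26 to 165 lower genes. It gave 4 to 13 higher chondrocyte genes, 1 to 3 BMP-SMAD targets, 1 to 4 collagens, 0 to 3 proteoglycans, 1 to 3 imprinted genes and 0 to 3 candidate miR-20a targets. It gave 1 to 6 lower contractile genes, 1 to 8 interferon genes, 0 to 2 NF-kB genes, 0 to 3 DNA replication genes and 1 to 3 D cyclins. DESeq2 gave 5 lower interferon genes and 5 lower NF-kB genes. With an 8-base match, the median of genes with a miR-20a-5p match minus that of the other genes was 0.0222. Among the named genes, signs turned only for those not called. The log2 fold change of Smad7 was 0.0119 with library totals. Over the fits that left out a library it ran from -0.1199 to 0.0630 for Smad7, from -0.0367 to 0.0570 for Id1, from -0.0903 to 0.0210 for Id2, from -0.0432 to 0.0549 for Id3 and from -0.6488 to 0.2329 for Ccn2. The cause was not tested. Depth limits the scarce genes, such as Bmp2 and Nog, and a difference that was not called in them is not shown to be absent.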
